A study of Mus musculus with 10 samples.

Results

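Transcripts of 9 chloride transport genes were followed in the hippocampus of Dp1Tyb and wild-type (WT) mice: 7 ClC genes (Clcn1, Clcn2, Clcn3, Clcn4, Clcn5, Clcn6 and Clcn7) and 2 cation-chloride cotransporter genes (Slc12a2 and Slc12a5). They were 9 of the 43629 genes in the count table, chosen by family and brain function, except that Clcn1 was put among them for its lower level in Dp1Tyb mice. The genotype difference of Clcn1 is therefore given as a description, with no test. RNA sequencing was done on the total hippocampus of 10 mice, 5 per genotype, with 1 library per mouse. The labels give an age of 18 weeks for all mice, and the authors' methods give a slightly older age. WT mice were male littermates of the Dp1Tyb mice. Dp1Tyb mice, genotype Dp(16Lipi-Zbtb21)1TybEmcf, carry a duplication on chromosome 16 that spans the genes from Lipi to Zbtb21 and gives 3 copies of a segment orthologous to human chromosome 21, a mouse model of Down syndrome. Both groups are of strain C57BL/6J.129P2. The model carries the mouse segment on chromosome 16 only, so human chromosome 21 genes with orthologues elsewhere are not in extra copy. None of the 9 genes lies in the duplicated segment.

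The ClC proteins are a family of chloride channels and of exchangers that trade chloride for protons. Clcn1 encodes the main resting chloride channel of skeletal muscle and Clcn2 a plasma membrane channel of glia and neurons, whereas Clcn3 to Clcn7 encode endosomal and lysosomal exchangers that work beside the proton pump of these organelles. Slc12a2 encodes NKCC1, which brings chloride into cells with sodium and potassium, and Slc12a5 encodes KCC2, a neuronal transporter that extrudes chloride with potassium. In mature neurons the low internal chloride kept by KCC2 lets GABA inhibit.

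Total counts ranged from 18227684 to 43692270 per library, and 17237 genes passed the filter on low counts, including 9 of 9 members. Of the 114 tested genes in the duplicated region, 103 were higher in Dp1Tyb mice and 68 were called, with a median log2 fold change of 0.53, against -0.0041 over all tested genes. Markers of hippocampal neurons were present in every library, with Prox1, a marker of dentate granule cells, at 96.3 to 129 CPM (counts scaled to a common library size) and Wfs1, a marker of CA1 pyramidal cells, at 141 to 172 CPM. These markers were listed after the data had been seen. The libraries differed widely in choroid plexus markers, whose summed level over 11 genes ran from 438.4 to 5570 CPM in WT and from 43.28 to 3936 CPM in Dp1Tyb mice. A choroid plexus score, the mean of the centred log2 CPM of these markers, was lowest in Dp1Tyb replicate 1 (-3.73), Dp1Tyb replicate 4 (-3.68) and WT replicate 2 (-1.5). Summed markers of neurons (5301 to 5660 CPM in WT, 5886 to 6133 CPM in Dp1Tyb) and of astrocytes (1297 to 1445 CPM and 1450 to 1523 CPM) did not overlap between the groups. Of the 7 neuronal markers 6 had fitted values above 0 and Stmn2 and Gad2 were called, whereas the 6 astrocyte markers split 3 above and 3 below 0 with Gfap called higher, against 0.87% of all genes called higher. Fitted values were below 0 for 5 of 6 microglial and 5 of 5 endothelial markers, with 0 called by edgeR and 1 and 3 of them at an unadjusted p under 0.05, against 14.4% of all genes tested.

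The members covered a wide span of levels per exon length. RPKM, CPM divided by the exon length in kilobases, averaged over the 10 mice put Slc12a5 highest at 82.2 RPKM (78.6 to 84.8 over mice). It was 3.45-fold above the next member, Clcn4, at 23.8 RPKM (22.8 to 24.5). Slc12a5 stood apart from every other member in every mouse.

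The plasma membrane channel gene Clcn2 and the endosomal and lysosomal exchanger genes followed Clcn4. Clcn6 averaged 19.2 RPKM (17.4 to 20.3) and Clcn2 17.3 RPKM (15.6 to 19.9). Clcn7 stood at 14.3 RPKM (13.5 to 15.3) and Clcn3 at 11.8 RPKM (10.8 to 13.1). Among neighbours in this order, the ranges of Clcn6 and Clcn2 overlapped, and those of Clcn3 and Slc12a2 did so as well. Differences between the genes of a pair within each mouse were not tested. Slc12a2 averaged 9.92 RPKM, with the wide range of 6.85 to 13.0.

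The lowest members were Clcn5, an endosomal exchanger gene, at 1.14 RPKM (1.00 to 1.33) and Clcn1 at 0.680 RPKM (0.398 to 0.911). Slc12a5 was 121-fold higher than Clcn1 and 8.29-fold higher than Slc12a2 on this scale. The lengths count the merged exons of every annotated transcript, so a long exon used by few transcripts lowers a level. The merged exons of Clcn3, for instance, come to 17071 bases.

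**Figure D1:**
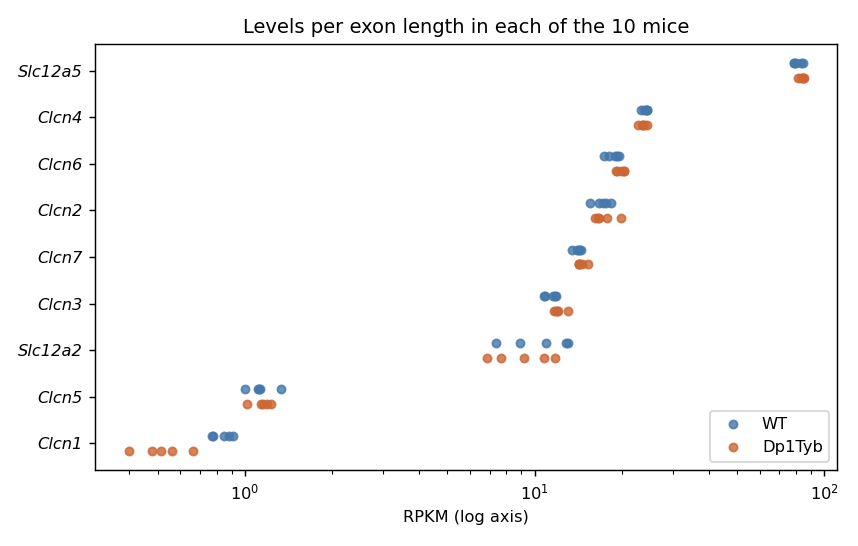
RPKM of each member in each of the 10 mice on a log axis, with WT in blue and Dp1Tyb in orange and members ordered by mean level. Slc12a5 sits near 82.2 RPKM, Clcn5 and Clcn1 lie at the low end, and only for Clcn1 do the points of the genotypes lie apart.

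The plot of levels per length shows how small the genotype difference was beside the spread between members. For 8 members the orange and blue points cover overlapping ranges.

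The 250 bases upstream of the annotated start are shown for the members at both ends of this order, from RefSeq on build GRCm38.p6, written 5′ to 3′ on the strand of the gene, which is + for both. Capitals mark each match to the E-box letters CANNTG, which reads alike on both strands. The windows are chr6:42286435-42286684 for Clcn1 and chr2:164960596-164960845 for the first of 2 starts of Slc12a5.
Clcn1: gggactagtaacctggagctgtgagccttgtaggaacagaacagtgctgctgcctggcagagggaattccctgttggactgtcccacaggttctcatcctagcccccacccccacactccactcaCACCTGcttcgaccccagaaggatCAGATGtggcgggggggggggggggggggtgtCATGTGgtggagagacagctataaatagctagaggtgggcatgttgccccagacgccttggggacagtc
Slc12a5: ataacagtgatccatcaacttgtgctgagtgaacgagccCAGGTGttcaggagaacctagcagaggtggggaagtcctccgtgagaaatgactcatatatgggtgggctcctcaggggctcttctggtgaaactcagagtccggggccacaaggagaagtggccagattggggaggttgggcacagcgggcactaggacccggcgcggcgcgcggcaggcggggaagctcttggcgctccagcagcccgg

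The Clcn1 window held 3 E-box matches and 1 match to TATAAA, with no match to GGGCGG or CCAAT on either strand. It held 3 CpG dinucleotides, against a median of 6 over 32851 promoters, of which 29% held fewer. The Slc12a5 window shown held 13 CpG dinucleotides, with 68.5% of promoters below it, 1 E-box match and 1 CCAAT match. Its second start, not shown, held 16 CpG dinucleotides, with 74.6% of promoters below it. That window had 2 E-box matches, 1 GGGCGG match and no CCAAT match. Counts per gene do not tell which start was used. E-box letters occur in 66.2% of all promoter windows of this length, TATAAA in 12.4%, CCAAT in 33.8% and GGGCGG in 32.7%. Motifs were sought on both strands. A site that reads alike on both strands counted as 1 match, and overlapping matches each counted.

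The other members' first starts held between 11 and 27 CpG dinucleotides, with 27 for Clcn3, 24 for Clcn6, 22 for Clcn4, 12 for Clcn7, and 11 each for Clcn2 and Clcn5. The second start of Clcn5 resembled the window of Clcn1, with 3 CpG dinucleotides, 3 E-box matches and 1 TATAAA match. Clcn1 and Clcn5 were also the 2 members with the lowest RPKM. However, the second start of Clcn7, a member at 14.3 RPKM, held 1 CpG dinucleotide, with 7.87% of promoters below it. The first start of Clcn5 held as many as that of Clcn2, a member at 17.3 RPKM. These are descriptions of the windows and not a test. No RefSeq window was used for Slc12a2.

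Clcn1 (ENSMUSG00000029862, chromosome 6, 42286685 to 42315756, + strand, GRCm38) was the member chosen for its change. In the WT mice its level was 4.79, 4.62, 4.18, 4.21 and 4.94 CPM. In the Dp1Tyb mice it was 3.05, 2.59, 2.16, 2.79 and 3.60 CPM. Every Dp1Tyb value lay below every WT value, and the lowest was in Dp1Tyb replicate 3.

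The groups averaged 4.55 ± 0.344 CPM (WT) and 2.84 ± 0.538 CPM (Dp1Tyb, SD, n = 5 each), a fitted fold of 0.624 and a log2 fold change of -0.68 ± 0.13 (SE). These values rested on 77 to 154 reads per WT library and 54 to 133 reads per Dp1Tyb library. By size of change Clcn1 was 7th among the 41 genes called lower, which were 0.238% of the genes tested, and 1.12% of the genes tested had non-overlapping groups with Dp1Tyb lower. Clcn1 was chosen on this contrast, so its rank and the lack of overlap are descriptions and lend it no support. In bulk tissue, fewer cells of a type and less RNA per cell cannot be told apart.

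When each library was left out in turn, the log2 fold change of Clcn1 lay between -0.77 and -0.60. Clcn1 was called in 4 of these 10 fits and not called in 6. Neither the range nor this count is a test, as Clcn1 was chosen for its decrease. With the choroid plexus score in the fit the log2 fold change was -0.71, and without the 3 libraries of lowest score it was -0.72.

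Clcn1 is best known from skeletal muscle, and skeletal muscle markers were low in these libraries. Their sum over 9 genes was 11.6 to 13.0 CPM in WT and 11.3 to 14.7 CPM in Dp1Tyb mice. Tnnc2, the troponin C of fast muscle, had no count in any library. Acta1, skeletal muscle actin, stood at 5.67 ± 0.741 CPM (SD) in the WT group and 4.31 ± 0.348 CPM (SD) in the Dp1Tyb group, with an edgeR adjusted p of 0.121. Of the 5 markers tested 0 were called. An unadjusted p under 0.05 was found for 3, against 14.4% of all genes tested. These were Acta1, lower, and Mylpf and Ttn, higher in Dp1Tyb. The part of these genes in the Clcn1 result was not tested.

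The 3′ end of Clcn1 overlaps Fam131b, a gene on the opposite strand. The shared exon stretch is 445 bases (chromosome 6, 42315312 to 42315756), 8.2% of the exon bases of Clcn1 and none of its coding sequence. It belongs to 1 of 10 annotated Clcn1 transcripts, whereas neither of the 2 protein-coding transcripts reaches it, the longer ending 655 bases before it. The strand setting of the counting is not given in the sources used here, so reads in this stretch may have been lost from either gene or assigned to the other.

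Fam131b was far more abundant, and its values overlapped between the genotypes. Its mean was 116 ± 5.82 CPM (SD) over the WT mice and 114 ± 7.24 CPM (SD) over the Dp1Tyb mice, and the fitted log2 difference was -0.02 ± 0.05 (SE, adjusted p = 0.894 by edgeR). Of the 17 other genes within 200 kb of Clcn1, 5 were tested and 0 were called. An unadjusted p under 0.05 was found for 2, against 14.4% of all genes tested. Epha1, an ephrin receptor gene, had a log2 fold change of -0.54 ± 0.21 (SE) with an edgeR adjusted p of 0.274. Zyx, which encodes the adhesion protein zyxin, had 0.13 ± 0.05 (SE) with an adjusted p of 0.262. Casp2 and Gstk1 each had -0.13, with adjusted p-values of 0.427 and 0.639 by the same test.

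The genes whose levels ran most like Clcn1 over the 10 libraries were ranked by the mean absolute difference of z-scored log2 CPM, among 15099 genes with a mean of at least 1 CPM. The nearest was Tle2, a transcriptional corepressor gene, at 0.236, followed by Slc27a1, a fatty acid transporter gene, at 0.253, against a median of 1.09 over all genes. Pgap3 and Cxxc1 stood at 0.26 each, and 1 gene without a symbol (ENSMUSG00000030771) at 0.259. The measure includes the genotype difference, so genes like Clcn1 are lower in Dp1Tyb by construction. The log2 fold changes of Tle2, Slc27a1, Pgap3 and Cxxc1 were -0.20, -0.26, -0.21 and -0.21, smaller in size than that of Clcn1. The gene without a symbol had -0.83, a larger decrease than that of Clcn1, at a mean of 2.55 CPM.

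The other 8 members did not pass the test. Called genes made up 1.11% of all genes tested, and 0 of these 8 were among them at an edgeR adjusted p under 0.05. Clcn3 and Clcn6 had an unadjusted p under 0.05, as did 14.4% of all genes tested. DESeq2 likewise called 0 of the 8, against 3.2% of the genes to which it gave an adjusted p. Over the 9 members, 6 fitted values were above and 3 below 0, with a median of 0.03 on the log2 scale, and the median size of change was 0.05 against 0.09 over all genes.

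Clcn3 (ENSMUSG00000004319, chromosome 8, 60910389 to 60983300) encodes an endosomal and synaptic vesicle exchanger. Its level was 185, 201, 198, 202 and 185 CPM in WT mice. It was 200, 206, 205, 223 and 202 CPM in Dp1Tyb mice. The ranges overlapped between the groups, with Dp1Tyb replicate 4 the highest. The log2 fold change was 0.09 ± 0.04 (SE), with a 95% interval from 0.0052 to 0.18 (edgeR adjusted p = 0.324).

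Clcn6 (ENSMUSG00000029016, chromosome 4, 148004259 to 148038821) encodes a late endosomal exchanger of neurons. Its WT levels were 107, 112, 115, 116 and 103 CPM, and its Dp1Tyb levels were 115, 121, 114, 121 and 118 CPM. The Dp1Tyb values lay at and above the upper end of the WT range, which they overlapped. The log2 fold change was 0.09 ± 0.04 (SE), with an interval from 0.0025 to 0.17 (edgeR adjusted p = 0.336).

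Clcn4 (ENSMUSG00000000605, chromosome 7, 7282309 to 7300851), whose product pairs with that of Clcn3, was the member with the least spread, with a coefficient of variation of 2.26% over the 10 mice. It averaged 206 ± 4.11 CPM in WT and 203 ± 4.97 CPM in Dp1Tyb mice (SD, n = 5), and the interval of its log2 fold change ran from -0.09 to 0.04. An antisense gene, Gm45631, overlaps 985 exon bases of Clcn4 and is not analysed here.

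Clcn5 (ENSMUSG00000004317, chromosome X, 7153810 to 7319358), known from the proximal tubule of the kidney, averaged 13.1 CPM in both groups, with SDs of 1.36 in WT and 0.918 in Dp1Tyb mice (n = 5). Its interval, from -0.16 to 0.19, was the widest among the exchanger genes. The lysosomal exchanger gene Clcn7 (ENSMUSG00000036636, chromosome 17, 25133391 to 25162104) averaged 74.6 ± 2.03 CPM in WT and 76.8 ± 2.54 CPM in Dp1Tyb mice (SD, n = 5), with an interval from -0.04 to 0.12.

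Clcn2 (ENSMUSG00000022843) lies on chromosome 16 at 20702964 to 20717746, whereas the duplicated segment runs from 75540514 to 97962622. It averaged 103 ± 6.38 CPM in WT and 105 ± 9.07 CPM in Dp1Tyb mice (SD, n = 5). The log2 fold change was 0.03 ± 0.06 (SE), with an interval from -0.10 to 0.16 (edgeR adjusted p = 0.862), and its sign changed to -0.02 with the choroid plexus score in the fit. Its ends overlap Fam131a by 85 bases and Polr2h by 82 bases on the other strand, and these neighbours had log2 fold changes of 0.09 and 0.03.

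**Figure D2:**
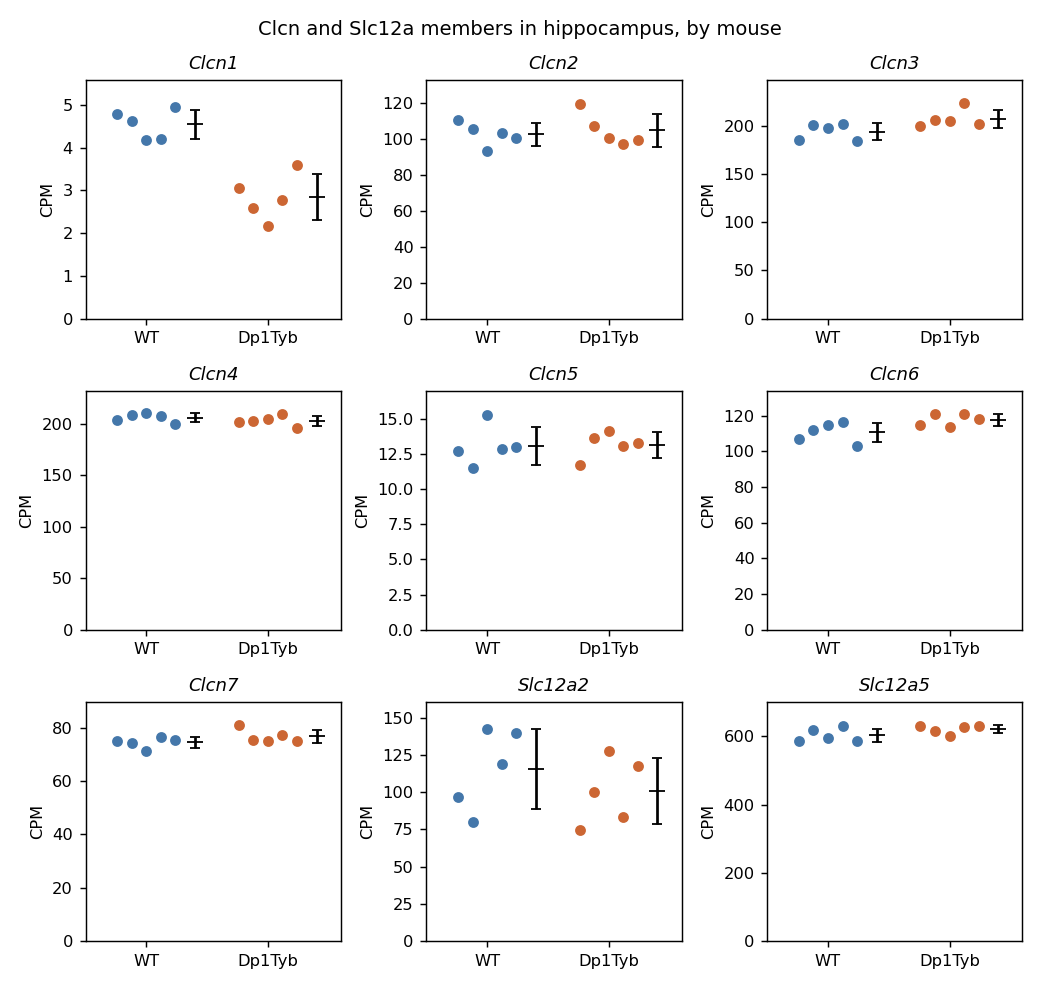
CPM of each member in each mouse (points in order of replicate number), with the group mean and SD (bar, n = 5) at the right of each group, every axis starting at 0. The Clcn1 points of the genotypes lie apart, those of the other 8 members overlap, and Slc12a2 spreads from 74.8 to 142 CPM.

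The plot of members by mouse shows the tight levels of Clcn4, Clcn7 and Slc12a5 beside the spread of Slc12a2 within each genotype. The coefficients of variation were 3.24% for Clcn7, 3.07% for Slc12a5 and 22.8% for Slc12a2.

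Slc12a5 (ENSMUSG00000017740, chromosome 2, 164960802 to 164999731) stood at 587, 618, 594, 630 and 585 CPM in WT mice. It stood at 632, 617, 602, 629 and 631 CPM in Dp1Tyb mice. The groups overlapped, although 3 of the 5 WT values lay below the lowest Dp1Tyb value. The log2 fold change was 0.05 ± 0.04 (SE), with an interval from -0.03 to 0.12 (edgeR adjusted p = 0.585).

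No slope on the choroid plexus score was called for it, with an estimate of -0.0075 log2 units per unit of score (edgeR adjusted p = 0.806). The genes most like Slc12a5 were Atpaf2 at 0.261, Heatr3 at 0.285 and Tmem8b at 0.292, against a median of 1.09. Morc2b and Slc37a4 followed at 0.326 and 0.338.

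Slc12a2 (ENSMUSG00000024597, chromosome 18, 57878678 to 57946821) varied far more between mice. Its level was 97.2, 80.2, 142, 119 and 140 CPM in WT mice. It was 74.8, 100, 128, 83.4 and 118 CPM in Dp1Tyb mice. The groups overlapped widely, and the lowest values were in Dp1Tyb replicate 1, WT replicate 2 and Dp1Tyb replicate 4, which were also the 3 libraries with the lowest choroid plexus score.

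Its mean was 116 ± 27.0 CPM (SD) over the WT mice and 101 ± 22.4 CPM (SD) over the Dp1Tyb mice, with a fitted log2 difference of -0.20 ± 0.17 (SE) with an interval from -0.56 to 0.16 (edgeR adjusted p = 0.609). Slc12a2 rose with the choroid plexus score by 0.15 log2 units per unit (edgeR adjusted p = 0.000284), and slopes were called for 3.57% of all genes tested, 3.45% in the positive direction. The choroid plexus epithelium is known to carry much NKCC1. With the score in the fit the genotype difference was 0.07 ± 0.08 (SE), and without the 3 libraries of lowest score it was -0.12 ± 0.12 (SE). The interval of the former, -0.10 to 0.25, was narrower than that without the score.

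The genes most like Slc12a2 were Lamp2, a lysosomal membrane protein gene, at 0.134, the leptin receptor gene Lepr at 0.14, Ctnna1 at 0.144, Mr1 at 0.145 and Stk39 at 0.155, against a median of 1.11. Stk39 encodes SPAK, the kinase that activates NKCC1.

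The ratio of Slc12a5 to Slc12a2, often read as a sign of how far neurons extrude chloride, was computed per mouse from RPKM. It was 8.85, 11.3, 6.12, 7.74 and 6.13 in WT mice. It was 12.4, 9.05, 6.90, 11.1 and 7.86 in Dp1Tyb mice. The groups overlapped, and the 3 highest ratios were in the same 3 libraries of lowest choroid plexus score. The mean log2 ratio was 2.97 ± 0.376 in WT and 3.21 ± 0.346 in Dp1Tyb mice (SD, n = 5), a difference of 0.24 that is smaller than either SD.

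**Figure D3:**
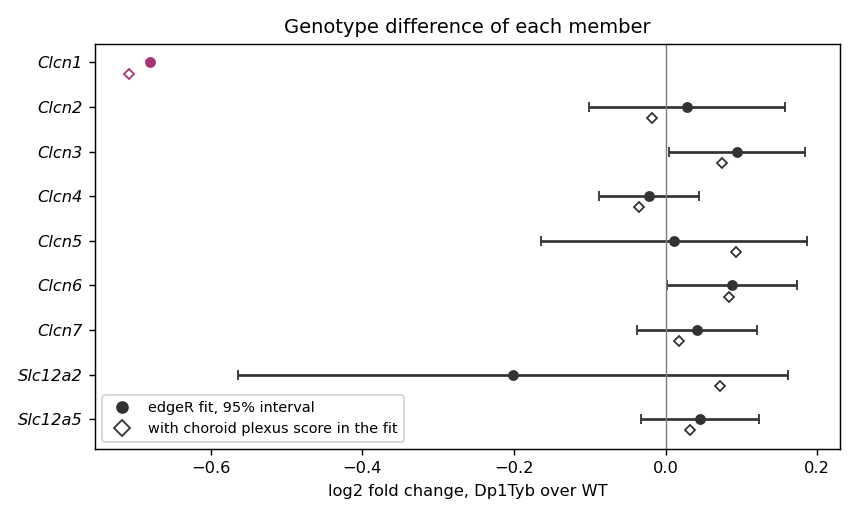
Log2 fold change, Dp1Tyb over WT, of each member from the edgeR fit (filled points, with 95% intervals as bars for all but Clcn1) and with the choroid plexus score in the fit (open diamonds), with Clcn1, chosen for its decrease, in purple. Slc12a2 has the interval from -0.56 to 0.16 and moves across 0 to 0.07 with the score.

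The plot of fold changes shows that the intervals of the 7 members other than Clcn1 and Slc12a2 lay within 0.2 of 0, whereas that of Slc12a2 was wider. With the score in the fit, Clcn2 and Slc12a2 changed sign, and 0 of the 8 passed the test, against 0.801% of all genes called in that fit. Without the 3 libraries of lowest score 0 of these 8 passed, against 0.625% of all genes.

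The remaining genes of chloride transport were taken from 8 lists of 90 genes, 75 of them tested. Of these 0 were called by edgeR, and 18 had an unadjusted p under 0.05, against 14.4% of all genes tested. DESeq2 called 5, against 3.2% of the genes to which it gave an adjusted p. Fitted values were above 0 for 43 and below 0 for 32, with a median of 0.02. Non-overlapping groups occurred for 4 of the 75, against 3.68% of all genes tested.

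Of the 9 other genes of the families, 5 passed the filter on low counts and were tested. The potassium-chloride cotransporter gene Slc12a7 had a log2 fold change of 0.02, and Slc12a9, at 8.34 RPKM in WT mice, had 0.07. Slc12a4, which encodes the widely expressed KCC1, had -0.37 ± 0.20 (SE, edgeR adjusted p = 0.418). It rose with the choroid plexus score by 0.17 per unit, and its genotype difference was -0.05 with the score in the fit. Slc12a8, named a cotransporter by its family, had -0.12.

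Of the 4 ClC partner genes 3 were tested. Ostm1, the subunit that Clcn7 needs in lysosomes, stood at 0.10 ± 0.04 (SE, edgeR adjusted p = 0.298), while Clcn7 itself had 0.04. Mlc1 and Hepacam, which encode the astrocyte partners of the Clcn2 channel, had -0.02 and -0.03.

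The WNK and SPAK kinases phosphorylate the cotransporters, activating NKCC1 and inhibiting KCC2. All 10 genes of the list were tested and 0 were called. Cul3, part of the ligase that degrades WNK kinases, had 0.10 ± 0.04 (SE, edgeR adjusted p = 0.288), and Cab39, a scaffold that activates SPAK, had 0.07 ± 0.03 (SE, edgeR adjusted p = 0.327). Wnk2 had -0.13 and Oxsr1, the sister kinase of SPAK, 0.10, neither with an unadjusted p under 0.05 by edgeR.

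Stk39 and the scaffold gene Cab39l behaved like Slc12a2. Stk39 was 71.1, 57.2, 102, 92.1 and 96.0 CPM in WT mice and 59.3, 73.0, 93.3, 59.9 and 91.9 CPM in Dp1Tyb mice. Their lowest 3 libraries were those with the lowest choroid plexus score. The slopes on that score were 0.15 for Stk39 and 0.27 for Cab39l (edgeR adjusted p = 0.00015 and 4.8e-05), and the genotype differences of -0.15 and -0.44 became 0.12 and 0.05 with the score in the fit. Neither genotype difference passed the test in either fit.

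**Figure D4:**
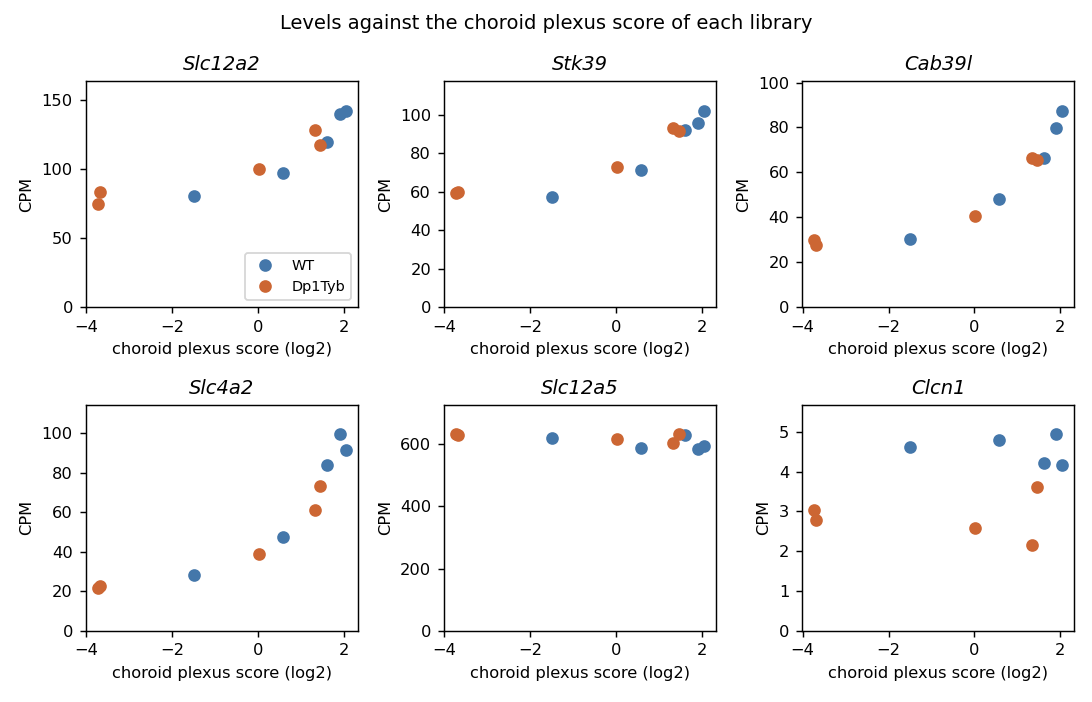
CPM of 6 genes in each library against its choroid plexus score (log2 units), WT in blue and Dp1Tyb in orange, with every vertical axis starting at 0. Slc12a2, Stk39, Cab39l and Slc4a2 are lowest in the 3 libraries of lowest score, Slc12a5 is nearly level, and the Clcn1 points separate by genotype at low and high scores.

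The plot against the choroid plexus score sets the members with and without a slope side by side. Of the 9 members 1, Slc12a2, had a called slope, as did 8 of the 75 pathway genes, against 3.57% of all genes tested. These 8 were Slc12a4, Stk39, Cab39l, Slc4a2, Slc4a5, Clic6, Ttyh2 and the proton pump gene Atp6v0c, and Slc4a5 is itself part of the score. Ttyh2 and Atp6v0c, like Ano2, were named after their values were seen.

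Of the 8 genes of bicarbonate and anion exchange (Slc4), 7 were tested and 0 called. Slc4a2, a chloride-bicarbonate exchanger of epithelia, had -0.70 ± 0.38 (SE, edgeR adjusted p = 0.418) and -0.09 with the score in the fit, after a slope of 0.35 per unit of score. Slc4a5, a choroid plexus cotransporter, had -1.20 with an edgeR adjusted p of 0.558. The most abundant, Slc4a10, stood at 49.4 RPKM in WT and 48.5 RPKM in Dp1Tyb mice. Slc4a4 followed at 19.0 and 19.4 RPKM, and Slc4a3 and Slc4a8 had log2 fold changes of -0.07 and -0.06.

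The vacuolar proton pump (V-ATPase) acidifies the organelles in which the ClC exchangers work. Of its 24 genes 19 were tested and 0 were called by edgeR. DESeq2 called 4, against 3.2% of the genes to which it gave an adjusted p. Unadjusted p-values under 0.05 were found for 8 genes higher and 1 lower in Dp1Tyb mice, against 14.4% of all genes in either direction, and the median log2 fold change of the list was 0.06, against -0.0041 over all genes. The groups did not overlap for 4 genes, Atp6v1a, Atp6v1b2, Atp6v1c1 and Atp6v1h, all higher in Dp1Tyb, as were 2.56% of all genes tested.

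Atp6v1h, a subunit of the catalytic V1 part, was 142, 146, 143, 144 and 141 CPM in WT mice. It was 161, 159, 154, 159 and 150 CPM in Dp1Tyb mice. All Dp1Tyb values lay above all WT values, and the log2 fold change was 0.13 ± 0.03 (SE, edgeR adjusted p = 0.0634). Atp6v1h was called without Dp1Tyb replicate 5 (edgeR adjusted p = 0.045) and in no other fit that left out 1 library. Its log2 fold change was 0.11 with the choroid plexus score in the fit (edgeR adjusted p = 0.257). Without the 3 libraries of lowest score it was also 0.11 (edgeR adjusted p = 0.355).

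The other V1 genes named by their p behaved alike in size. The log2 fold change of Atp6v1c1 was 0.13 ± 0.03 (SE, edgeR adjusted p = 0.0867), Atp6v1e1 0.14 ± 0.04 (adjusted p = 0.101) and Atp6v1a 0.14 ± 0.04 (adjusted p = 0.169). In DESeq2 the adjusted p was 0.011 for Atp6v1h, 0.0227 for Atp6v1c1, 0.0345 for Atp6v1e1 and 0.047 for Atp6v1b2. The most abundant pump genes, Atp6v1g2 and Atp6v0e2, stood at 159 and 140 RPKM in WT and 170 and 151 RPKM in Dp1Tyb mice. The summed neuronal markers were also higher in Dp1Tyb, without overlap, and their part in these values was not tested.

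**Figure D5:**
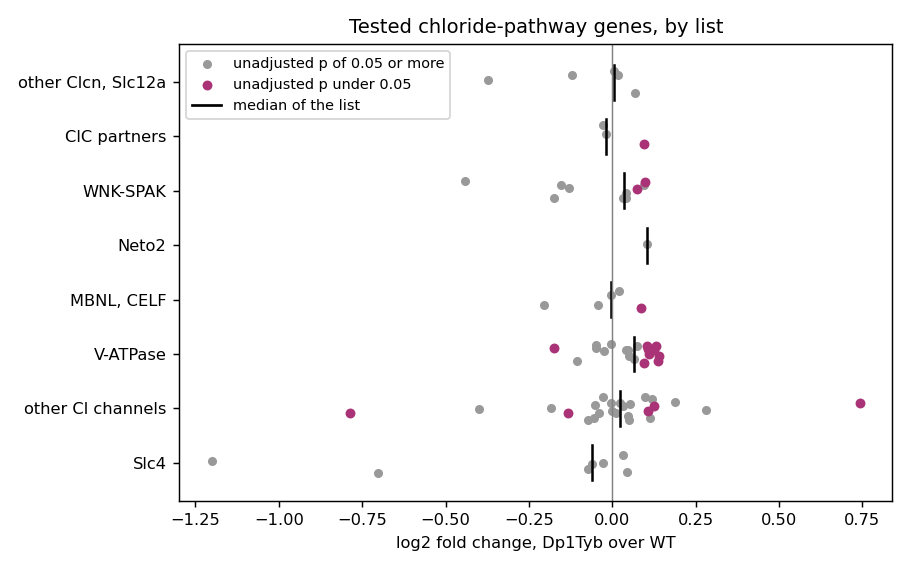
Log2 fold change, Dp1Tyb over WT, of each tested gene in the 8 pathway lists, with purple for an unadjusted p under 0.05 and a vertical line at the median of each list. The V-ATPase list has its median at 0.06, and 0 of the genes shown passed the adjusted test by edgeR.

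The plot of pathway lists shows most genes within 0.25 of 0. Farther out lay Clic3, Cftr and Ano2, all under 5 CPM in every mouse, and Slc12a4, Cab39l, Slc4a2, Slc4a5 and Clic6, each with a called slope on the choroid plexus score.

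Among 29 other chloride channel genes 25 were tested and 0 called by edgeR. An unadjusted p under 0.05 was found for 5, against 14.4% of all genes tested. Clic3, an intracellular chloride channel gene of low level, was 3.36, 1.41, 2.77, 2.91 and 3.08 CPM in WT mice and 1.42, 1.4, 1.84, 1.79 and 1.41 CPM in Dp1Tyb mice. The groups overlapped through WT replicate 2, and the log2 fold change was -0.79 ± 0.20 (SE, edgeR adjusted p = 0.0897). Without WT replicate 2, the library through which the groups overlapped, it was -0.95 (edgeR adjusted p = 0.00457). No other fit that left out 1 library called Clic3. Without the 3 libraries of lowest choroid plexus score, WT replicate 2 among them, the log2 fold change was -0.98 (edgeR adjusted p = 0.026). Both fits without WT replicate 2 leave out the WT value closest to the Dp1Tyb values. Their smaller adjusted p-values therefore lend the decrease of Clic3 no support. With the score in the fit the log2 fold change was -0.66 (edgeR adjusted p = 0.266). DESeq2 on all libraries gave an adjusted p of 0.0165.

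Ttyh1, a gene of the tweety family expressed in glia, had -0.13 ± 0.05 (SE, edgeR adjusted p = 0.248), and Ttyh3, at 36.8 and 36.1 RPKM in WT and Dp1Tyb mice, was the next most abundant. Lrrc8d, a subunit of the volume-regulated anion channel, had 0.11 ± 0.04 (SE, adjusted p = 0.27), and Ano3 of the anoctamin family had 0.13 ± 0.06 (SE, adjusted p = 0.318). The value farthest above 0 belonged to Cftr, the cystic fibrosis channel gene, picked after its values were seen, at 0.156 to 0.488 CPM in WT and 0.394 to 0.735 CPM in Dp1Tyb mice (edgeR adjusted p = 0.339).

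Clic6 was the only gene of the lists inside the duplicated segment. It ranged from 12.1 to 106 CPM in WT and from 1.58 to 122 CPM in Dp1Tyb mice, with a slope of 1.08 per unit of choroid plexus score. Its genotype difference was -0.40 ± 0.87 (SE, edgeR adjusted p = 0.865) and, with the score in the fit, 0.49 ± 0.12 (SE, adjusted p = 0.0944). Neither value passed the test.

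Neto2, which encodes an auxiliary protein of KCC2, stood at 0.11 ± 0.06 (log2 fold change ± SE, edgeR adjusted p = 0.443). Of the 5 MBNL and CELF genes, splicing factors known to act on Clcn1 transcripts in muscle, 5 were tested and 0 called. Mbnl1 had 0.09 ± 0.04 (SE, edgeR adjusted p = 0.285). The most abundant, Celf1 and Mbnl2, stood at 32.2 and 20.8 RPKM in WT and at 32.7 and 20.8 RPKM in Dp1Tyb mice.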

How the data were processed

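Total hippocampal RNA of 10 mice was sequenced by the authors as stranded poly(A) libraries. They trimmed reads with Trim Galore, aligned them with TopHat2 2.0.12, discarded multiply aligned reads and counted with HTSeq. The strand setting is not given in the sources used here. The deposited counts are whole reads per gene, not normalized. The authors' normalized table and their DESeq2 1.6.3 comparison, which holds fold changes and p-values, were not used.

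Groups came from the genotype in the labels, which give no batch. Positions and exon lengths came from GENCODE M21 (GRCm38), which matched 42462 of 43629 genes (97.3%), and 14647 genes had no count. Genes kept by filterByExpr were tested with edgeR 4.0.16 in R 4.3.3 (TMM, quasi-likelihood F-test, no covariate), with Benjamini-Hochberg adjustment over 17237 genes and a threshold of 0.05. CPM and RPKM use TMM library sizes. DESeq2 1.42.0 was the alternative test, and other scalings, filters, covariates and left-out libraries were also tried. Scripts were tested on simulated data. Among 45 pairs of libraries chi-square per degree of freedom was at least 4.63, so no library repeated another.

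Members and lists were chosen with earlier results of these data known. Named genes were the members, in each list up to 4 of smallest p and up to 2 most abundant, genes overlapping a member, tested genes within 200 kb of Clcn1, and the 5 genes most like Clcn1, Slc12a2 and Slc12a5. The choroid plexus slope and the fit without the 3 libraries of lowest score were added after the data were seen. With 5 mice per group, p-values measure the spread between these mice. Values of some list genes are not reported here.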

Additional observations from a re-analysis of the deposited data

How the results depend on the processing

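The table of alternatives gave 192 values close to those reported, 18 that moved and 8 that changed sign. Members called numbered 0 without the 3 libraries of lowest choroid plexus score, and 0 to 1 when each library was left out. The 1 member called was Clcn1, chosen for its decrease, so that this count is no test of it, and it was 0 without WT replicates 1, 2 or 5 or Dp1Tyb replicates 2, 3 or 4. Pathway genes called numbered 5 with DESeq2, 1 without those 3 libraries, and 0 to 1 when each library was left out. Over all genes, 191 were called, against 507 with DESeq2, 108 without those 3 libraries, and 105 to 218 when each library was left out (105 without WT replicate 4, 127 without WT replicate 5, 105 without Dp1Tyb replicate 2, 111 without Dp1Tyb replicate 3). Samples were treated as unpaired. Same-numbered mice correlated between -0.0686 and 0.277 in their deviations, which does not settle whether the replicate numbers pair them. A fit with the replicate number as a block called 315 genes and left the counts of members and pathway genes called at 1 and 0.

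The log2 fold change of Clcn2 was -0.0179 with the choroid plexus score in the fit, -0.00353 without those 3 libraries, and -0.025 to 0.0561 when each library was left out (-0.00367 without WT replicate 3, -0.025 without Dp1Tyb replicate 1). That of Slc12a2 was 0.0721 with the score in the fit and -0.311 to -0.109 when each library was left out. That of Clcn5 was -0.0347 to 0.069 when each library was left out, with -0.0347 without WT replicate 2, -0.00252 without Dp1Tyb replicate 2 and -0.0162 without Dp1Tyb replicate 3. The cause of these changes was not tested. Adjusted p-values of the members other than Clcn1 ranged over the edgeR and DESeq2 alternatives from 0.156 to 0.593 for Clcn3, from 0.238 to 0.584 for Clcn6 and from 0.292 to 0.822 for Slc12a2. The ratio of Slc12a5 to Slc12a2 differed by 0.136 to 0.375 log2 units when each library was left out. Clcn1, at 54 reads in the shallowest case, has the least depth of the members.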
